A study of Mus musculus with 8 samples.

Results

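The genes described here are YAP and TAZ, the transcriptional coactivators of the Hippo pathway, with their DNA-binding partner TEAD1 and 7 genes that are widely used as their targets. The 10 genes were Yap1, Wwtr1 (which encodes TAZ), Tead1, Ccn1, Ccn2, Ankrd1, Amotl2, Tgfb2, Asap1 and Ajuba. Each was measured by the probe set to which the annotation gave that symbol and no other, and for Yap1 and Ccn2, which had more than 1 such probe set, by the brighter one. They are 10 of the 22180 genes with a probe set of their own and 10 of the 13845 genes tested, and all 10 lay above the filter on low signal on 8 of 8 arrays. Primary hepatocytes of male C57Bl6J mice were treated for 6 h with 100 nM glucagon, with 100 nM glucagon and 2 µM GW4064 together, with 2 µM GW4064, or with DMSO, the solvent. Glucagon is released in fasting and acts on hepatocytes through cyclic AMP. GW4064 is a man-made ligand that activates the bile acid receptor FXR. All 4 groups were kept in low-glucose medium with serum albumin and 100 nM dexamethasone, a synthetic glucocorticoid. Each group had 2 arrays, 1 from each of 2 experiments, and in each experiment the cells of 3 mice were combined, with 2 technical replicates pooled per sample. A difference between the experiments is therefore a difference between 2 pools of cells. The age of the mice is not given in the labels.

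In the Hippo pathway a kinase cascade (Stk3 and Stk4, with Sav1, acting on Lats1 and Lats2, with Mob1a and Mob1b) phosphorylates YAP and TAZ, which then stay in the cytoplasm or are degraded. Unphosphorylated YAP and TAZ enter the nucleus and switch on genes through TEAD factors, which bind the sequence GGAATG. Cell spreading, stiff substrates and serum lipids raise their activity, and protein kinase A, the effector of cyclic AMP, is known to lower it in cultured cells. In the liver the pathway restrains organ size and shapes the balance between hepatocyte and bile duct identity. Much of this regulation acts on the proteins, which arrays do not measure.

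RefSeq promoters on GRCm38.p6 (250 bases before to 50 after the start) were available for 7 of the 10 genes, and GGAATG was searched on both strands. It was present in 6 of the 7, the exception being Tgfb2, against 14.7% of all 32851 promoters of the same length. The promoters of Ankrd1 (chr19:36119795-36120094, minus strand), Ccn1 (chr3:145649936-145650235, minus strand), Wwtr1 (chr3:57575861-57576160, minus strand), Amotl2 (chr9:102717554-102717853, plus strand) and Tgfb2 (chr1:186705940-186706239, minus strand) are shown, because their transcripts are compared below. Capitals mark GGAATG or its reverse complement CATTCC, and each promoter is written 5′ to 3′ along its gene.
Ankrd1: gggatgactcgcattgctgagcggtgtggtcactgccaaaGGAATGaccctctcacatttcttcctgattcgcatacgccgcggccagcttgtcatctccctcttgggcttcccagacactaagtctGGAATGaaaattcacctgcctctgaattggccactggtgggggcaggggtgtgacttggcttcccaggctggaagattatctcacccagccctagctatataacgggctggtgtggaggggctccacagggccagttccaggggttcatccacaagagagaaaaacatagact
Ccn1: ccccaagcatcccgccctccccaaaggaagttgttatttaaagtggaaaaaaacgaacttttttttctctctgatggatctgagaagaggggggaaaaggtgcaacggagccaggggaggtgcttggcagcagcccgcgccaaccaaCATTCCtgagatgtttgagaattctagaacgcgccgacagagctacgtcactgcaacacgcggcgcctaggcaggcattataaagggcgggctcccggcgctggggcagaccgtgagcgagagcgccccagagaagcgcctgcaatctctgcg
Wwtr1: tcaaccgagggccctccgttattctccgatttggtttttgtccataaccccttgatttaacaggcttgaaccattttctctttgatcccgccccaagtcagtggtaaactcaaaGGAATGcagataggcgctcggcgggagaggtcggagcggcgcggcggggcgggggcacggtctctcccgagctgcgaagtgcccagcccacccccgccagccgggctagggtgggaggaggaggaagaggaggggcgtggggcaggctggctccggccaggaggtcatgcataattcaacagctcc
Amotl2: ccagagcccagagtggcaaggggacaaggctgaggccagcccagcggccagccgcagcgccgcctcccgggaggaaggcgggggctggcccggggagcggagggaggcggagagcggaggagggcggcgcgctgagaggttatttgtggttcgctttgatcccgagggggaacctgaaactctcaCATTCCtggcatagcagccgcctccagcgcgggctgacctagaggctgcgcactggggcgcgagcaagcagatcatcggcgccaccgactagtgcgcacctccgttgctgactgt
Tgfb2: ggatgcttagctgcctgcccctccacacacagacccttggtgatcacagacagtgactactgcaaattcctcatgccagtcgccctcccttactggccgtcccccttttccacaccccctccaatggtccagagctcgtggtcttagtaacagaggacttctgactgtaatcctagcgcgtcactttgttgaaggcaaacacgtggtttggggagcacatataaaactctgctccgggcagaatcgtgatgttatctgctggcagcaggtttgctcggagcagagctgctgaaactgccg
The first base of the match lay 210 and 123 bases before the start of Ankrd1, 103 before that of Ccn1, 136 before that of Wwtr1 and 65 before that of Amotl2. Yap1 had 1 match, 141 bases before its start, and Ajuba had 2, at 186 and 164 bases. The second RefSeq promoter of Wwtr1 held the same match, 170 bases before its own start. Other motifs were searched on both strands in the same windows. The CArG box, bound by serum response factor, the AP-1 motif TGANTCA and the full cyclic AMP response element TGACGTCA were found in 0 of the 7 genes, against 1.63%, 7.81% and 1.79% of all promoters. TGACG, the first part of that element, lay in the windows of Ccn1 and Tgfb2 and in 20.8% of all promoters. A match to these letters is a description of the sequence, and so is its absence from this window.

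All values are log2 signals as deposited, and differences are with glucagon (or GW4064) minus without. Signal levels are not comparable between probe sets. Array medians lay between 3.42 and 3.57, and with 2 arrays a group the precision is low. The GW4064 array of experiment 2 stood apart on the second principal component, at 40.2 against -14.8 to 5.42 for the other 7, so results are also given without it. The 5 glucagon response genes looked at as a check (Pck1, G6pc, Nr4a1, Nr4a3 and Ppargc1a) all rose with glucagon, and 5 of 5 passed. The 4 FXR target genes looked at (Nr0b2, Abcb11, Abcb4 and Osgin1) had higher signals with GW4064, by a median of 0.60, and 4 of 4 had an unadjusted limma p below 0.05, but 0 passed after adjustment. All 8 hepatocyte markers, Alb among them, lay above the filter level. P-values are from limma over all 13845 genes with Benjamini-Hochberg adjustment, and a gene passes at an adjusted p below 0.05. In the first model the groups have their own means; the second adds the experiment as a block, since the arrays of an experiment share their cell pool. Adjusted p are given for both, first model first, and both rest on only 2 cell pools.

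Glucagon was followed by lower signals of the secreted target proteins Ccn1 and Ccn2, of Ankrd1, of the ligand Tgfb2, of Asap1 and of Wwtr1 itself. For these 6 genes each of the 4 arrays with glucagon lay below each of the 4 without, which 6.88% of all genes tested did. The average differences of Yap1, Tead1 and Amotl2 were -0.06, -0.21 and -0.03, and their groups overlapped. Averaged over the presence of GW4064, 0 of the 10 genes passed in the first model, where 0.506% of all genes passed as lower and 0.816% as higher. At an unadjusted p below 0.05 the first model gave 6 of 10 as lower and 0 as higher (7.53% of all genes were lower and 7% higher). With the experiment as a block 5 of 10 passed as lower (Wwtr1, Ccn2, Ankrd1, Tgfb2 and Asap1) and 0 as higher, against 3.08% and 2.67% of all genes. Fewer cells of a type and less RNA per cell cannot be told apart in these bulk samples.

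**Figure D1:**
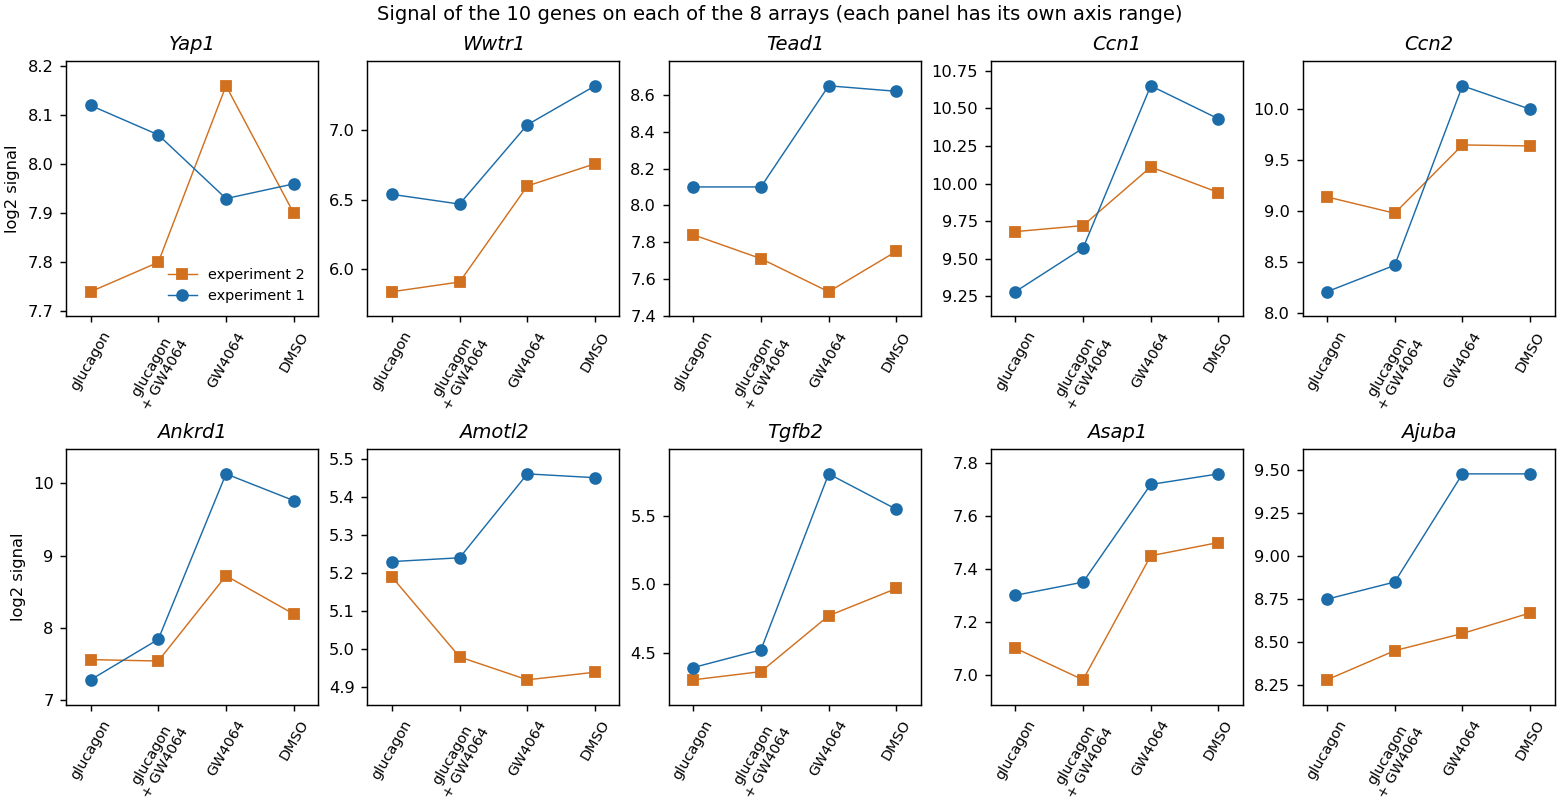
Log2 signal of the 10 genes (1 panel each, with its own axis range) on the 8 arrays, by treatment from left to right, glucagon, glucagon and GW4064, GW4064, and DMSO, with a line per experiment. Ccn1, Ccn2, Ankrd1, Tgfb2, Asap1 and Wwtr1 lie lower in both glucagon groups than in both groups without glucagon. Yap1, Tead1 and Amotl2 show no such gap, and Ajuba shows it only within each experiment.

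Of the coactivators and their partner, Wwtr1 passed with the block, and Yap1 and Tead1 did not. In experiment 2 and experiment 1, in that order, Wwtr1 had log2 signals of 5.84 and 6.54 in glucagon cells, 5.91 and 6.47 with both agents, 6.60 and 7.04 with GW4064, and 6.76 and 7.32 with DMSO. The highest glucagon array (6.54) lay just below the lowest array without it (6.60). The average difference was -0.74 (SE 0.23), or 1.67-fold lower (adjusted p = 0.2005 in the first model and 0.00605 with the block), and it was lower in 4 of 4 matched pairs. Yap1 had 7.74 and 8.12 in glucagon cells, 7.80 and 8.06 with both agents, 8.16 and 7.93 with GW4064, and 7.90 and 7.96 with DMSO, in the same order. Its groups overlapped, and the difference was -0.06 (95% interval -0.35 to 0.24; adjusted p = 0.880, 0.819 with the block). The fainter second probe set of Yap1 averaged 3.27, near the filter level. Tead1, a TEAD factor that carries YAP and TAZ to DNA, had 7.84 and 8.10 in glucagon cells, 7.71 and 8.10 with both agents, 7.53 and 8.65 with GW4064, and 7.75 and 8.62 with DMSO. The groups overlapped, with the arrays of experiment 1 above those of experiment 2, and the difference was -0.21 (95% interval -0.89 to 0.48; adjusted p = 0.797, 0.486 with the block).

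Ankrd1 and Ccn2 had the widest differences of the 10 genes. Ccn2, a matricellular protein (also called connective tissue growth factor) that marks YAP and TAZ activity, had signals of 9.14 and 8.21 with glucagon, 8.98 and 8.47 with both agents, 9.65 and 10.23 with GW4064 and 9.64 and 10.00 with DMSO (experiment 2, then experiment 1). Its averages were 8.68 ± 0.66 with glucagon, 8.72 ± 0.36 with both agents, 9.94 ± 0.41 with GW4064 and 9.82 ± 0.25 with DMSO (SD, n = 2 each). The highest array with glucagon (9.14) lay below the lowest without it (9.64). The average difference was -1.18 (SE 0.25, 2.27-fold lower; adjusted p = 0.0895, 0.0471 with the block). Ccn1, its relative (CYR61) and an extracellular adhesion protein, had 9.68 and 9.28 with glucagon, 9.72 and 9.57 with both agents, 10.11 and 10.65 with GW4064, and 9.94 and 10.43 with DMSO. It did not overlap between the groups either, and its difference was -0.72 (SE 0.18, 1.64-fold lower; adjusted p = 0.134, 0.0649 with the block). Ankrd1, a nuclear and sarcomeric ankyrin repeat protein, had 7.56 and 7.28 with glucagon, 7.54 and 7.84 with both agents, 8.72 and 10.13 with GW4064, and 8.19 and 9.76 with DMSO. The arrays with glucagon lay between 7.28 and 7.84 and those without spanned 8.19 to 10.13, with no overlap. The difference was -1.64 (SE 0.41, 3.13-fold lower; adjusted p = 0.135, 0.0340 with the block).

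The other targets act as a growth factor and at adhesions and junctions. Tgfb2, the ligand transforming growth factor beta 2, had 4.30 and 4.39 with glucagon, 4.36 and 4.52 with both agents, 4.77 and 5.81 with GW4064, and 4.97 and 5.55 with DMSO. All arrays with glucagon lay below all others. The difference was -0.89 (SE 0.24, 1.85-fold lower; adjusted p = 0.154, 0.0333 with the block). Asap1, an Arf GTPase-activating protein of focal adhesions, had 7.10 and 7.30 with glucagon, 6.98 and 7.35 with both agents, 7.45 and 7.72 with GW4064, and 7.50 and 7.76 with DMSO. The arrays with glucagon (up to 7.35) lay below those without (from 7.45), with a difference of -0.42 (SE 0.13, 1.34-fold lower; adjusted p = 0.1996, 0.0294 with the block). Ajuba, a LIM protein that inhibits the Lats kinases, had 8.28 and 8.75 with glucagon, 8.45 and 8.85 with both agents, 8.55 and 9.48 with GW4064, and 8.67 and 9.48 with DMSO. Its glucagon arrays lay below the others within each experiment and overlapped across them, and the difference was -0.46 (SE 0.27; adjusted p = 0.496, 0.0641 with the block). Amotl2, an angiomotin-family protein that binds YAP, had 4.92 to 5.46 in all groups, with a difference of -0.03 (95% interval -0.42 to 0.36; adjusted p = 0.955, 0.896 with the block).

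Beside the differences of these genes, the summed linear signal of 6 measured cholangiocyte markers was 86.4 to 105 on the arrays with glucagon and 126 to 281 on those without. In it Sox9 had -1.32 (adjusted p = 0.133, 0.0662 with the block), and it passed as lower with the block without the GW4064 array of experiment 2 (-1.77, adjusted p = 0.00122). Krt19 had -0.22 (adjusted p = 0.469, 0.217 with the block) and Epcam -0.0010 (adjusted p = 0.997, 0.996 with the block), and Cftr and Tspan8 lay below the filter level on all arrays. Sox9 carried the gap in the sum, with log2 signals of 5.43 to 5.94 with glucagon and 6.32 to 7.88 without. Krt19, Epcam and Krt7 lay between 2.64 and 3.79 on all arrays. The 10 stellate and fibroblast markers summed to 151 to 196 with glucagon and 148 to 197 without, with Des, Lrat, Col1a2, Col3a1 and Lum below the filter level on all arrays, and the 4 mesothelial markers were below it too. The part of these cells in the differences was not tested.

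**Figure D2:**
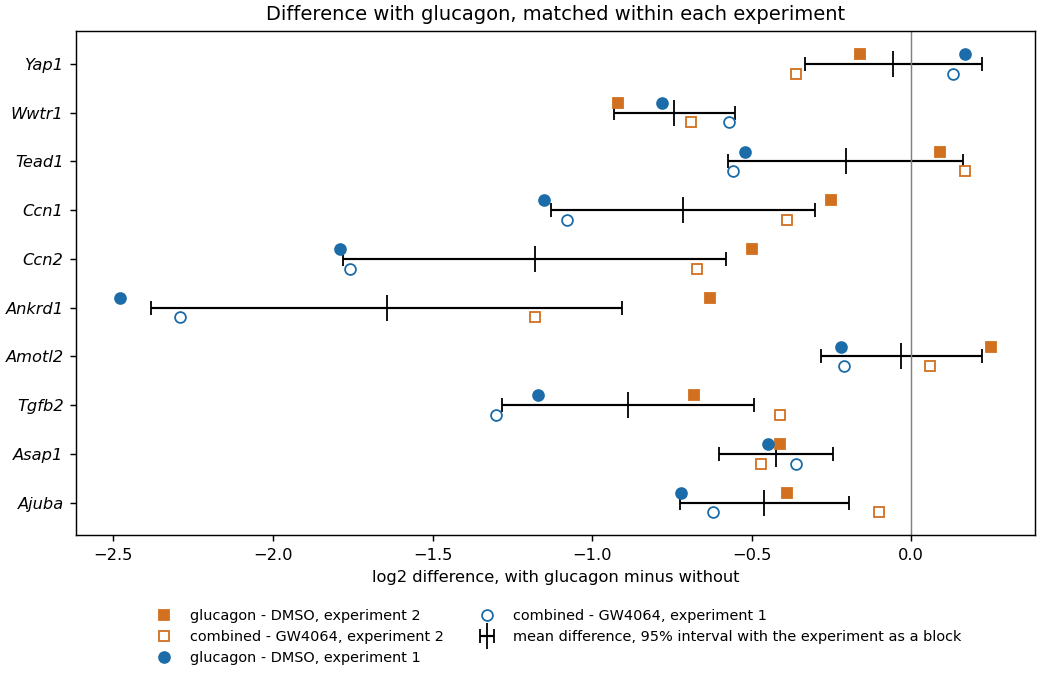
Log2 difference with glucagon for each of the 10 genes: filled points are glucagon minus DMSO, open points are glucagon and GW4064 minus GW4064, in colours and shapes for experiment 2 and experiment 1, and black bars are the mean with its 95% interval from the model with the experiment as a block. The points of Ccn1, Ccn2, Ankrd1 and Tgfb2 lie further left in experiment 1 than in experiment 2, and Wwtr1 and Asap1 have similar values in both.

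Within matched pairs the signal with glucagon was lower in 4 of 4 pairs for 7 of 10 genes (Wwtr1, Ccn1, Ccn2, Ankrd1, Tgfb2, Asap1 and Ajuba), as it was for 16.7% of all genes. For these 7 the glucagon arrays lay below the others within each experiment (13.1% of all genes). The 4 pairs of a gene came from 2 cell pools, so they are not 4 independent replicates. Wwtr1 differed by -0.92 and -0.69 in experiment 2 and by -0.78 and -0.57 in experiment 1, each as glucagon minus DMSO, then both agents minus GW4064. Asap1 was as even between the experiments, with -0.41 and -0.47, against -0.45 and -0.36. Ccn1, Ccn2 and Ankrd1 had larger differences in experiment 1. Ccn2 differed by -0.50 and -0.67 in experiment 2 and by -1.79 and -1.76 in experiment 1, and Ankrd1 by -0.63 and -1.18, against -2.48 and -2.29. The test of that difference between the experiments was chosen after the values were seen. Each experiment was 1 pool of cells. The SE and p of this test therefore rest on arrays of the same pool and do not measure the spread between pools. The glucagon difference of experiment 2 minus that of experiment 1 was 1.19 (SE 0.18) for Ccn2, 1.48 (SE 0.22) for Ankrd1 and 0.79 (SE 0.14) for Ccn1. With adjusted p of 0.14, 0.14 and 0.171 none passed, and 0 of 10 genes did (0.00722% of all genes were called higher and 0% lower). At an unadjusted p below 0.05, 7 of 10 were higher and 1 was lower, against 5.89% and 4.69% of all genes.

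Glucagon given alone, against DMSO, called 0 of the 10 genes in the first model (0.00722% of all genes were lower) and 5 at an unadjusted p below 0.05 (3.73% of all genes). With the block 1 gene, Wwtr1, was called lower, at -0.85 (adjusted p = 0.0296), against 0.282% of all genes. Glucagon and GW4064 together, against the same DMSO arrays, called 0 of 10 in the first model (0% of all genes were lower, and 4 of 10 members and 3.39% of all genes at an unadjusted p below 0.05). With the block 1 gene, Wwtr1 at -0.85 (adjusted p = 0.0321), was called lower, against 0.224% of all genes. The 2 comparisons share their DMSO arrays, and Ccn2 had -1.14 and -1.10, Ankrd1 -1.55 and -1.28, and Tgfb2 -0.92 and -0.83 in them. Without the GW4064 array of experiment 2, Tgfb2 passed too, with adjusted p of 0.0284 and 0.0420 (1.69% and 1.24% of all genes were lower).

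Leaving out arrays changed the calls. Without the GW4064 array of experiment 2 and with the block, 7 of 10 genes were called lower, Ccn1 (adjusted p = 0.0288) and Ajuba (0.0249) joining the 5, and 6.64% of all genes were. The other 7 arrays were also left out in turn with the block. The calls changed in these refits too, over all genes as well as among the members, and in some of them no member was called. The differences stayed negative for those 7 genes in these refits (Ankrd1 -1.99 to -1.30, Wwtr1 -0.79 to -0.70).

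With GW4064, 0 of the 10 genes passed: 0 of 10 were called for GW4064 against DMSO, for its average over the presence of glucagon, or for its interaction with glucagon, and 0% of all genes were in each, with and without the block. At an unadjusted p below 0.05, 0 of the 10 were found in each. The shares of all genes at that p were 1.16% higher and 1.54% lower for GW4064 against DMSO, 0.73% and 0.831% for the average, and 0.614% and 0.462% for the interaction. Its average difference was 0.36 for Ankrd1 (95% interval -0.61 to 1.33), 0.18 for Ccn1 (-0.24 to 0.60) and 0.08 for Ccn2 (-0.50 to 0.67). Of the 10 genes only Ccn1 was higher with GW4064 in 4 of 4 matched pairs, by 0.17 and 0.04 in experiment 2 and 0.22 and 0.29 in experiment 1. How many of all genes had this pattern was not counted. Wwtr1 had -0.11 (-0.65 to 0.43) and Yap1 0.06 (-0.24 to 0.35).

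Between the experiments, 6 of 10 genes had lower signals in experiment 2 under all 4 treatments (Tead1, Ajuba, Wwtr1, Tgfb2, Amotl2 and Asap1), against 20.8% of all genes, and 0 had higher ones under all 4, against 13.8%. Mean differences, experiment 2 minus experiment 1, were -0.66 for Tead1 (-1.12 to -0.26 over the treatments), -0.65 for Ajuba (-0.92 to -0.40) and -0.57 for Wwtr1 (-0.70 to -0.45). The signs differed between treatments for Ccn2 (0.13, from -0.58 to 0.93), Ankrd1 (-0.75, from -1.57 to 0.28), Ccn1 (-0.12) and Yap1 (-0.11). By a rule of a mean difference over 1 on the log2 scale with 1 sign throughout, 0 of 10 were lower, against 0.282% of all genes. Without the glucagon pair 1 of 10 was, Ankrd1 at -1.095, as glucagon was its only treatment with the opposite sign (0.28). The share of all genes without that pair is not given here. The pools had no replicate, so no test was made. The summed linear signal of 8 endothelial markers was 237 to 271 in experiment 2 and 373 to 390 in experiment 1, with Clec4g and Tek below the filter level on all arrays. The 10 stellate and fibroblast markers summed to 187 to 197 in experiment 2 and 148 to 152 in experiment 1, and the 7 Kupffer cell and macrophage markers to 79.3 to 87.6 and 71.5 to 77.1, with Cd5l below the filter level on all arrays. Members of a list differed. Of the endothelial markers tested, Lyve1 (-1.02) and Cdh5 (-0.50) had the largest mean differences and Kdr (-0.06) the smallest. Of the stellate and fibroblast markers tested, Reln (0.84) and Dcn (0.67) were higher in experiment 2 under all treatments. Acta2 (-0.25) and Pdgfrb (-0.06) had signs that differed between treatments. Among the Kupffer cell and macrophage markers tested, Marco (0.38), C1qa (0.365), Vsig4 (0.143) and Adgre1 (0.14) were higher under all treatments. The signs of Clec4f (-0.07) and Csf1r (-0.02) differed between treatments. The part of these cells in the differences between the experiments was not tested.

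**Figure D3:**
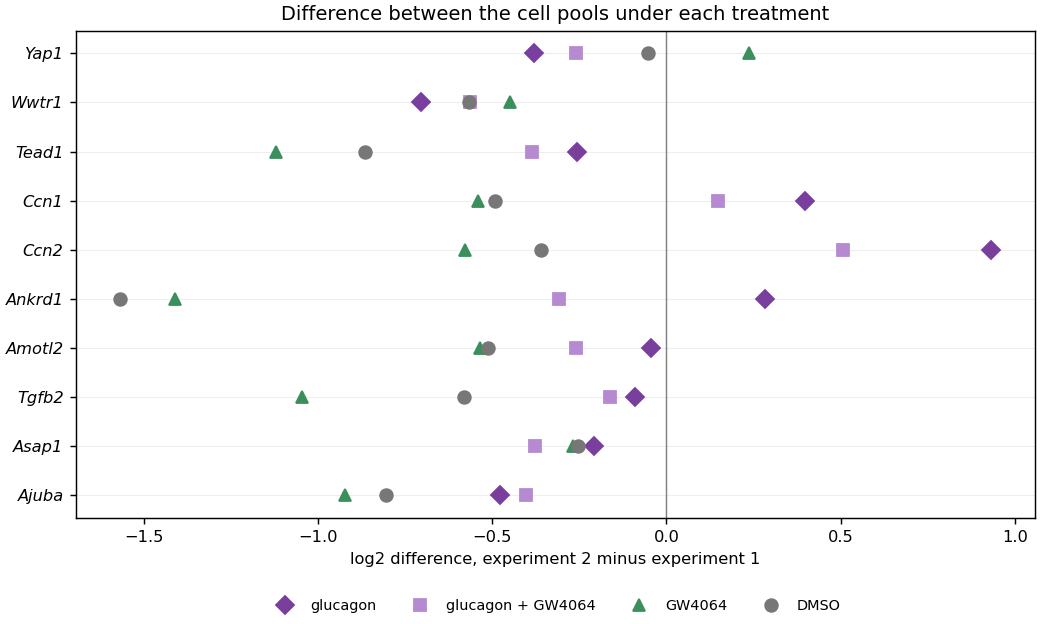
Log2 difference of experiment 2 minus experiment 1 for each of the 10 genes under each of the 4 treatments, 1 point per treatment. Points of Tead1, Ajuba, Wwtr1, Tgfb2, Amotl2 and Asap1 all lie left of 0, and those of Ccn2, Ankrd1, Ccn1 and Yap1 on both sides.

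Of 20 tested Hippo kinases and scaffolds (of 23 listed), 3 passed as lower with the block, and 0 passed in the first model (unadjusted p below 0.05 in 2 as higher and 3 as lower). For this and the following lists, over all arrays, the shares of all genes were 3.08% lower and 2.67% higher with the block. In the first model they were 0.506% lower and 0.816% higher, and 7.53% and 7% at an unadjusted p below 0.05. The refit without the GW4064 array of experiment 2 called a larger share of all genes lower, as given above. The shares over all arrays are therefore not the background of that refit. Frmd6, a FERM-domain protein upstream of the kinases, differed by -1.76 (adjusted p = 0.165, 0.0175 with the block). Map4k4, a kinase that can activate Lats, differed by -0.53 (adjusted p = 0.148, 0.0173 with the block). Mob1a, the Lats cofactor, differed by -0.41 (adjusted p = 0.188, 0.0365 with the block). The median difference of the 20 genes was 0.04, beside -0.59 for the 10 genes and -0.00 for all genes tested. Frmd6 had signals of 4.78 and 5.25 with glucagon, 5.08 and 5.51 with both agents, 6.03 and 7.88 with GW4064, and 6.05 and 7.72 with DMSO. Stk38 had 0.21 (adjusted p = 0.296, 0.164 with the block). Without the GW4064 array of experiment 2, with the block, 4 of the 20 passed as lower, with Stk38l joining at -0.45 (adjusted p = 0.0254). Of 12 tested signature genes of YAP and TAZ (of 21 listed), 1 passed as lower with the block and 0 in the first model (unadjusted p below 0.05 in 2 as lower). It was Fjx1, a Golgi kinase relative (-1.38, adjusted p = 0.152, 0.0385 with the block). F3, tissue factor, differed by -0.90 (adjusted p = 0.285, 0.185 with the block) and Thbs1, thrombospondin 1, by -1.01 (adjusted p = 0.399, 0.185 with the block). Myof had -0.36 (adjusted p = 0.377, 0.137 with the block). Without the GW4064 array of experiment 2, with the block, 3 of the 12 passed as lower: Fjx1 (-1.72, adjusted p = 0.00372), F3 (-1.27, adjusted p = 0.0330) and Thbs1 (-1.41, adjusted p = 0.0408). The list's median was -0.25. For glucagon minus DMSO, F3 had -0.19 in experiment 2 and -1.59 in experiment 1, and Thbs1 -0.21 and -1.90.

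**Figure D4:**
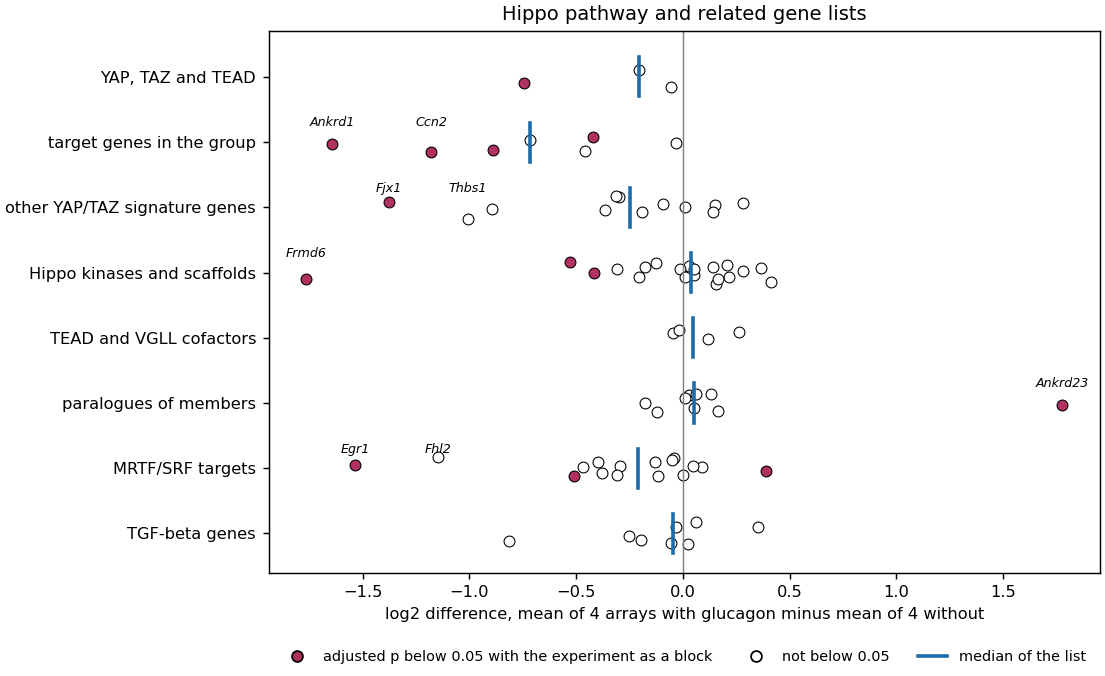
Log2 difference with glucagon, mean of the 4 arrays with it minus mean of the 4 without, for the tested genes of each list (1 row per list, blue line its median); filled points passed at an adjusted p below 0.05 with the experiment as a block. The 10 genes described here all have negative differences, as do 7051 of all 13845 genes tested. Yap1 (-0.06), Tead1 (-0.21) and Amotl2 (-0.03) had opposite signs in the experiments. The kinases, cofactors and paralogues lie on both sides.

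Of the 4 tested TEAD and VGLL cofactors (of 7 listed) 0 passed, with Vgll4 at 0.26 (adjusted p = 0.394, 0.263 with the block; unadjusted p below 0.05 in 0 of 4). Of 9 tested paralogues of the genes (of 14 listed), 1 passed as higher with the block and 0 in the first model (unadjusted p below 0.05 in 1). It was Ankrd23, a relative of Ankrd1, at 1.78 (adjusted p = 0.0918, 0.00431 with the block). A list of 16 genes held serum response factor (Srf), its MRTF partners Mrtfa and Mrtfb, and targets of these factors. From it Egr1 passed as lower (-1.54, adjusted p = 0.00805, 0.00322 with the block). With the block Tagln2 also passed as lower, and Mrtfb, a partner and not a target, as higher. Tagln2 differed by -0.51 (adjusted p = 0.417, 0.0328 with the block) and Mrtfb by 0.39 (adjusted p = 0.291, 0.0442 with the block). Without the GW4064 array of experiment 2, with the block, 5 of the 16 passed as lower and 1 as higher. Cnn1 (-0.90, adjusted p = 0.00438), Cnn2 (-0.71, adjusted p = 0.0138) and Fhl2 (-1.64, adjusted p = 0.0249) then joined the others. The median of the 16 over all arrays was -0.21. Of 8 tested transforming growth factor beta genes (of 9 listed) 0 passed in either model (unadjusted p below 0.05 in 1 as higher and 2 as lower), with Smad7, the inhibitory SMAD, at -0.81 (adjusted p = 0.138, 0.0725 with the block). Tgfbr1 had 0.35 (adjusted p = 0.180, 0.0727 with the block) and Smad2 -0.25 (adjusted p = 0.208, 0.100 with the block). Without the GW4064 array of experiment 2, with the block, 1 of the 8 passed as lower, Smad7 at -1.04 (adjusted p = 0.0138).

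The genes most like the mean of Ccn1 and Ccn2 over the 8 arrays were Ifngr1 (Pearson r 0.990), Snapc4 (0.990), Angptl8 (0.986), Smad7 (0.981) and Ccdc120 (0.980), a description, since the points share arrays and cell pools. Among the members, Ankrd1 had r 0.919, Tgfb2 0.880 and Yap1 -0.164. After each array was centred on its experiment, Gm8883 (0.993), Ifngr1 (0.993), Osbpl8 (0.992), Stk40 (0.992) and Snapc4 (0.992) were nearest, with Ankrd1 at 0.993 and Tgfb2 at 0.979.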

How the data were processed

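The 8 arrays (MoGene 2.0 ST, from 300 ng RNA) were processed by the authors in GeneSpring, per the labels' design text. The deposited values are log2 signals, a scale read from their range, and the summarisation, normalization and version are not given in the labels. Of 41345 probe sets, 23521 carried 1 symbol, 1814 several and 16010 none. Probe sets above the 40th percentile of an array on at least 2 arrays were kept (14639 with 1 symbol), and of genes with several the brightest was used, leaving 13845 genes. Group differences were tested in R 4.3.3 using limma 3.58.1, with a mean per group over 8 arrays (6 contrasts, two-sided), and with the experiment as a block. The arrays of an experiment share their cell pool: deviations from the group means correlated at 0.350 to 0.620 over the 6 pairs of groups. Calls were made at a Benjamini-Hochberg adjusted p below 0.05. Genes other than the 10 were named by rule: those called, otherwise at most 4 per list by p, and the nearest 5 by correlation. Members, lists and tests were chosen with earlier results of these data known. The steps were tested on simulated data. Alternatives were other filters, normalization, array weights, only the groups compared and arrays left out. Stk3, Areg, Spp1, Taok1, Rassf1 and Gadd45a had no probe set of their own and were not analysed here.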

Additional observations from a re-analysis of the deposited data

Results flagged for a closer look

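Yap1, Tead1 and Amotl2 had glucagon differences of opposite sign in the experiments, and Yap1 also a GW4064 difference. For Yap1 the matched glucagon differences were -0.16 and -0.36 in experiment 2, against 0.17 and 0.13 in experiment 1, a difference of -0.41 between the experiments. Tead1 had 0.09 and 0.17 in experiment 2, against -0.52 and -0.56 in experiment 1, a difference of 0.67. Amotl2 had 0.25 and 0.06 in experiment 2, against -0.22 and -0.21 in experiment 1, a difference of 0.37. Tested in limma by a model with a glucagon effect in each experiment, chosen after the values were seen, the adjusted p were 0.440, 0.227 and 0.440. That test rests on arrays of the same cell pool and does not measure the spread between pools. For the GW4064 difference of Yap1, which was 0.21 higher in experiment 2, the matched pairs had 0.26 and 0.06 in experiment 2, against -0.03 and -0.06 in experiment 1, and the difference was not tested.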

How the results depend on the processing

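With the experiment as a block, as the shared cell pools pair the arrays, 5 of the 10 genes were called for the glucagon average in place of 0, and 7 without the GW4064 array of experiment 2. Leaving out each array in turn gave 0 to 1 calls without the block (1 without the GW4064 array of experiment 2, Tgfb2) and 0 to 5 with it (refits chosen after seeing the data). Glucagon alone gave 1 call with the block and 2 without that GW4064 array, and the combined group 1 and 2. Over all genes the counts were 183, 797 with the block and 1454 without that array, and leaving out an array 25 to 702 without the block and 113 to 2379 with it. For glucagon alone they were 16, 128 and 438, with 44 under array weights, 9 with only the groups compared and 2 to 27 leaving out an array, and for the combined group 17, 102 and 342, with 47, 9 and 2 to 24. GW4064 alone gave 0 calls and 406 without its array of experiment 1, and the GW4064 average 3 with the block without that of experiment 2. In the glucagon average, Yap1 turned to 0.060 with the block without that array, and Amotl2 to 0.067, 0.035 and 0.027 with the block without the glucagon, GW4064 or DMSO array of experiment 1. Leaving out an array, Yap1 ranged over -0.15 to 0.039 without and -0.17 to 0.033 with the block, Tead1 over -0.48 to 0.075 without, and Amotl2 over -0.17 to 0.10 without and -0.13 to 0.067 with the block. The members past the fold between experiments were 0, or 0 to 1 leaving out a treatment pair (1, Ankrd1 at -1.095, without the glucagon pair). The share of all genes in these refits is not given here. Of 80 values of single genes under other settings, 67 kept their direction and side of the threshold, and 12 passed newly. Leaving out an array leaves its group with 1 array, assumed to vary like the others, and the causes were not tested.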
